A study of Drosophila melanogaster and Drosophila simulans and Drosophila yakuba with 24 samples.

Results

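The odorant-binding protein genes of Drosophila melanogaster were examined in 4 tissues of adult females. All rows of the gene table whose symbol begins with Obp and a digit were taken, which gave 51 of 13898 genes. Of these, 44 carry an Obp symbol in the table itself and 7 stand there under older names: Pbprp1 (Obp69a), Pbprp2 (Obp19d), Pbprp3 (Obp83a), Pbprp4 (Obp84a), Pbprp5 (Obp28a), Os-E (Obp83b) and CG13027 (Obp73a). The study asked where in the adult body genes of the piRNA pathway are expressed. For this it sequenced total RNA, depleted of ribosomal RNA, from head, thorax, eviscerated abdomen and ovary of wild-type Canton S females aged 10 days, with 3 libraries for each tissue. The 4 groups share strain, genotype, sex and age and differ in the tissue and in how it was taken. The paper does not give the number of flies behind each of these libraries. Flies were frozen before heads and thoraces were separated, and abdomens were opened and emptied in buffer. Handling thus differed together with tissue between head or thorax and abdomen, and its part was not tested. An eviscerated abdomen is the body wall with its attached tissue, fat body included, so it is not a single cell type. The abdomen libraries also held RNA of ovarian genes, with values given below. The females had been kept in vials with males and were mated, by the general statement of the study's methods.

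Odorant-binding proteins are small secreted proteins. The best known are made by the support cells of olfactory hairs on the antenna and are released into the fluid around the neurons, where they bind odorants and pheromones. Other members of the family are known from taste hairs, from the seminal fluid that males transfer at mating, and from haemolymph and glia. Many lie side by side in the genome in small tandem groups.

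Summed over the family, the level was highest in head, intermediate in eviscerated abdomen and thorax, and lowest in ovary. The unit used throughout is CPM, the gene's reads scaled to a fixed number of reads counted on genes, with library sizes adjusted by TMM factors, and these reads numbered 7884586 to 32498809 per library. The 51 genes together held 3259, 4275 and 3946 CPM in the 3 head libraries, 1322, 1274 and 910.4 CPM in thorax, 3179, 1250 and 1670 CPM in eviscerated abdomen and 135, 113 and 149.6 CPM in ovary. The head libraries lay above all others, the ovary libraries below all others, and thorax and abdomen overlapped. Abdomen replicate 1 stood 2.18 times above the mean of abdomen replicates 2 and 3, 1460 CPM. Over genes in general, chi-square per degree of freedom was 117 and 87.9 between this library and replicates 2 and 3. It was 13.0 between replicates 2 and 3, so the departure of replicate 1 was not limited to the family. In bulk tissue, fewer cells that express a gene and less RNA of it per cell cannot be told apart. As a share of all reads counted on genes, the family held 0.342 to 0.393% in head, 0.0811 to 0.101% in thorax and 0.134 to 0.318% in eviscerated abdomen.

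**Figure D1:**
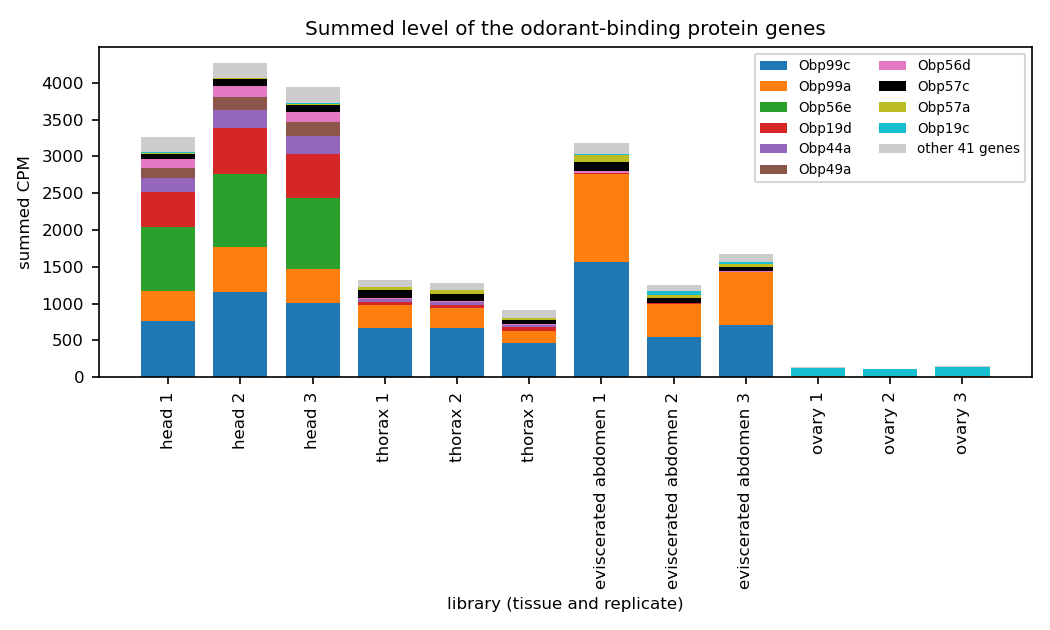
Stacked bars give the CPM of the 51 genes in each of the 12 libraries, with 10 genes in colour and the other 41 in grey. The bars of head reach 3259 to 4275 CPM and hold Obp56e in green, which is not visible elsewhere, whereas those of ovary reach 113 to 149.6 CPM and are almost entirely Obp19c.

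Few genes made up this sum. The 3 highest genes accounted for 64.6 to 65.0% of the family CPM in head and for 76.5 to 81.5% in thorax. Obp99c was the highest gene in every thorax and abdomen library, with 50.6 to 52.8% of the family CPM in thorax. Obp56e in replicate 1 and Obp99c in the other two were the highest in head. Counted per gene length, with the RPKM values of the authors, Obp56e led in head with 406 ± 109 RPKM (SD, n = 3), ahead of Obp99c with 356 ± 138 RPKM. The difference of the means is smaller than the spread between libraries, which both genes share. Within each head library Obp56e was the higher, at 286, 498 and 434 RPKM beside 208, 483 and 376 RPKM. Obp99c led in thorax with 405 ± 115 RPKM and in abdomen with 387 ± 213 RPKM, where Obp99a followed with 353 ± 166 RPKM. In abdomen replicate 3 this order was reversed, with 347 RPKM for Obp99a and 320 RPKM for Obp99c. In ovary Obp19c led with 121 ± 11.9 RPKM, and the next gene, Obp99a, had 9.68 ± 4.19 RPKM.

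By mean CPM, 38 of the 51 genes were highest in head, 6 in eviscerated abdomen, 5 in thorax and 2 in ovary. The matching shares over all genes were not determined, so these counts are a description. A mean of at least 10 CPM was reached by 16 genes in head, 10 in thorax, 8 in abdomen and 1 in ovary, and by 17 genes in any tissue. Of the 51, 27 genes had enough counts to be tested. The other 24 did not exceed 3.19 CPM in any library and had between 3 and 69 counts over the 12 libraries, and 21 of them were highest in head.

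**Figure D2:**
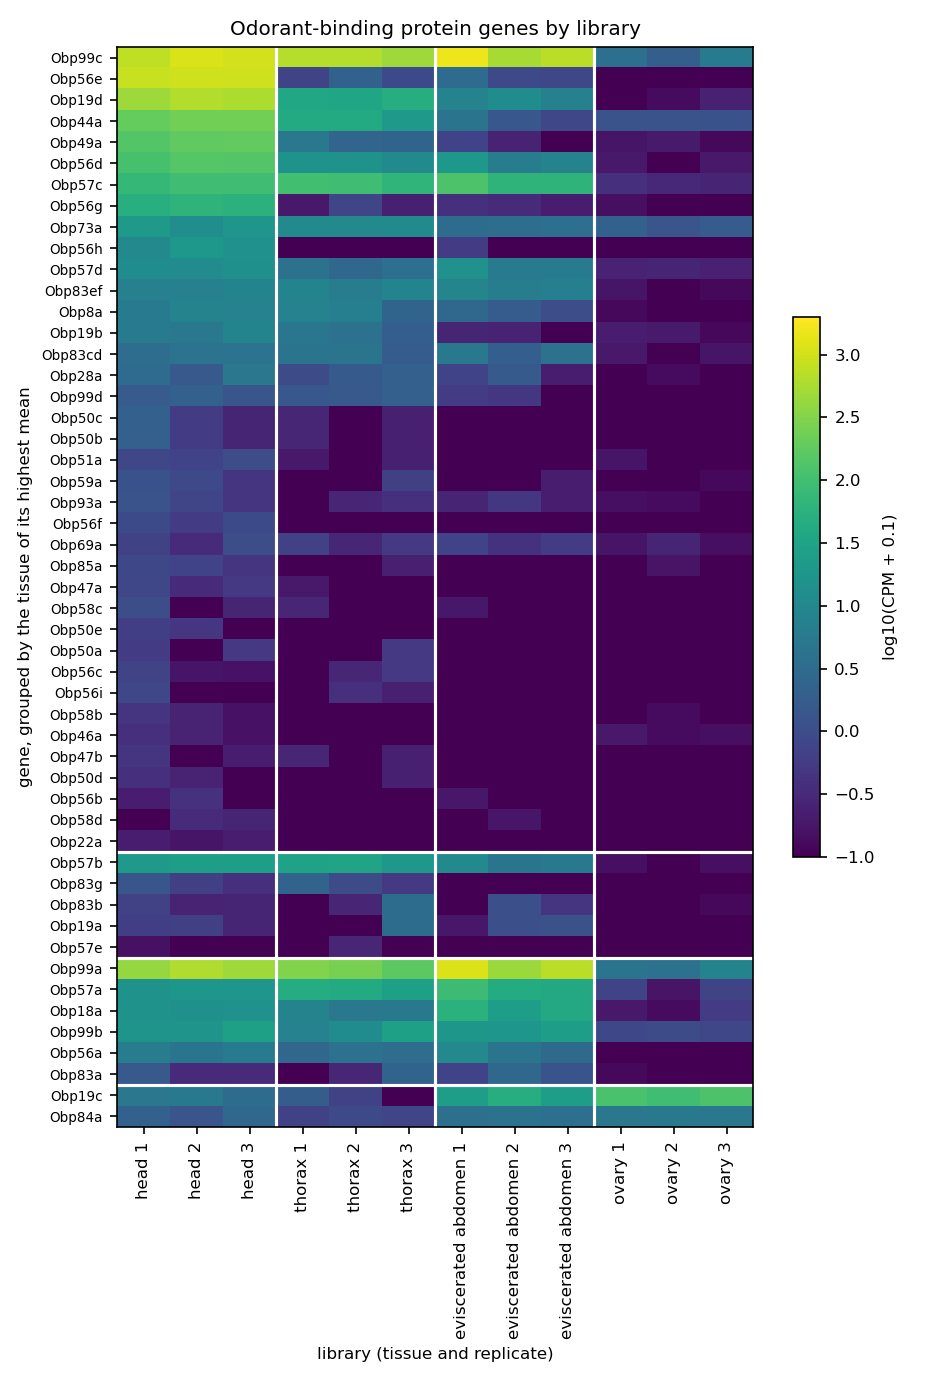
Each row is a gene and each column a library, and colour gives log10(CPM + 0.1). White lines separate the tissues and the blocks of 38, 5, 6 and 2 genes with their highest mean in head, thorax, eviscerated abdomen and ovary. Most rows are near the bottom of the scale outside head, and only Obp19c is bright in ovary.

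Differences between tissues were tested for 11188 genes with the quasi-likelihood test of edgeR, with Benjamini-Hochberg adjustment and an adjusted p under 0.05 as the threshold. Log2 fold changes are the first tissue minus the second, with their standard error. Against thorax, head was higher for 13 of the 27 tested genes and lower for 1 gene, where 23.2% of all genes tested were higher in head and 17.6% were lower, 40.8% in all. The 13 were Obp18a, Obp19c, Obp19d, Obp44a, Obp49a, Obp56d, Obp56e, Obp56g, Obp56h, Obp57d, Obp73a, Obp84a and Obp99a, and the gene lower in head was Obp57a. Genes with reads almost only in head, such as Obp56g and Obp56h, could pass the filter on low counts only through it, so the counts and medians of the head comparisons describe the genes that passed and not the whole family. The median log2 fold change over the 27 genes was 0.90, beside 0.12 over all genes tested.

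Against eviscerated abdomen, head was again higher for 13 genes and it was lower for 4. These are 17 of the 27, beside 74.9% of all genes tested (37.6% higher in head and 37.3% lower). The genes higher in head were Obp8a, Obp19b, Obp19d, Obp28a, Obp44a, Obp49a, Obp56d, Obp56e, Obp56g, Obp56h, Obp57b, Obp73a and Obp99d, and those lower were Obp18a, Obp19c, Obp57a and Obp84a. The median log2 fold change of the 27 genes was 0.53, and that of all genes tested 0.01. These comparisons share the head libraries.

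Between the body segments without the head the family was split. Eviscerated abdomen was higher than thorax for 5 genes (Obp18a, Obp19c, Obp57d, Obp84a and Obp99a) and lower for 8 (Obp8a, Obp19b, Obp19d, Obp44a, Obp49a, Obp57b, Obp73a and Obp99d), where 35.7% of all genes tested were higher in abdomen and 36.4% were lower, 72.1% in all. Without thorax replicate 3, 8 of the 27 genes were higher in abdomen, beside 3830 of the 11664 genes tested in that fit. The added genes were Obp19a, Obp83a and Obp99b, whose highest thorax values lay in the library left out. With all libraries, neither count of members was a larger share of the 27 than the share of all genes called in that direction. Against ovary, eviscerated abdomen was higher for 22 of the 27 genes, beside 35.3% of all genes tested, and lower for 1, Obp19c, beside 33.4%, so that 23 genes were called, beside 68.7% of all. The median log2 fold change of the members against ovary was 6.59, and 5.75 when the 5 genes with no count in any ovary library were set at the limit that 3 counts over the 3 libraries allow. Genes low in ovary could enter the test only through a tissue where they were higher, so this count and these medians describe the genes that passed the filter and not the whole family.

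**Figure D3:**
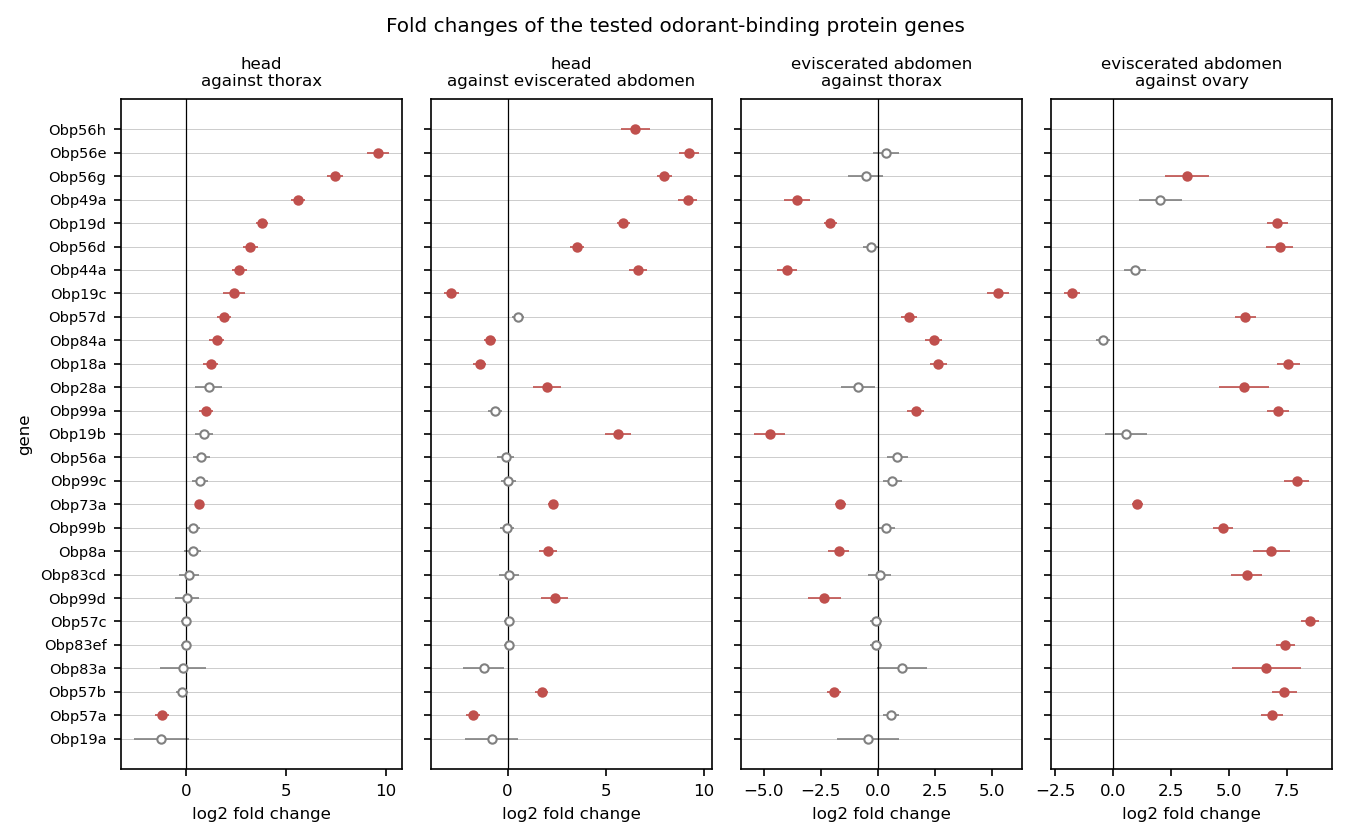
Points are the log2 fold changes of the 27 tested genes with bars of 1 standard error in the 4 comparisons, filled red at an adjusted p under 0.05 and open otherwise, and the row order is that of head against thorax. Genes with no count in any library of a tissue are left out of that tissue's panels. Obp56e, Obp56g, Obp49a and Obp19d lie far to the right in both panels of head, and Obp19c is the only red point left of 0 against ovary.

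Of the genes known from the antenna, most were hardly detected in head. The list holds 9 genes (Obp19a, Obp28a, Obp56d, Obp59a, Obp69a, Obp83a, Obp83b, Obp84a and Obp99a), and 7 of them stayed under 10 CPM in each of the 12 libraries. Only Obp56d and Obp99a exceeded that level. Obp83a and Obp83b, which are co-expressed in the support cells of pheromone-sensing and related hairs, are among the most abundant messages of the antenna. Here Obp83a had 1.48, 0.232 and 0.238 CPM in head, 0, 0.195 and 2.22 CPM in thorax and 0.639, 2.73 and 1.20 CPM in eviscerated abdomen. The head libraries were thus no higher than those of thorax and abdomen, and the groups overlapped. Obp83b had 0.590, 0.155 and 0.179 CPM in head, and its highest value, 3.19 CPM, was found in thorax replicate 3.

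Obp19a showed the same distribution, with 0.531, 0.542 and 0.179 CPM in head, no count in thorax replicates 1 and 2 and 3.19 CPM in thorax replicate 3. Thorax replicate 3 therefore held the highest value of both Obp19a and Obp83b in the whole series. Over genes in general, chi-square per degree of freedom was 13.6 between thorax replicates 1 and 2. It was 47.7 and 37.0 between these and thorax replicate 3. Of the 9 antennal members, 3 (Obp19a, Obp83a and Obp83b) were higher in this library than in every head library, and 3 (Obp56d, Obp84a and Obp99a) were lower than in every head library. The 6 markers of antennal cells outside the family were divided as well. In thorax replicate 3, a5 had 1.11, a10 2.36 and Os-C 1.53 CPM, above their ranges in head of 0.0595 to 0.472, 0.298 to 0.472 and 0.542 to 1.07 CPM. There lush with 0.416 and Orco with 0.555 CPM lay below every head library, and Snmp1 lay within the range of head. The share of all genes above or below every head library in thorax replicate 3 was not determined. The counts of members and markers are therefore a description. Without thorax replicate 3, Obp19a and Obp83a were called higher in abdomen than in thorax (adjusted p = 0.0224 and 0.0239 by edgeR), and with all libraries neither was called. These calls rest on few reads. Thorax replicate 3 held all 23 thorax counts of Obp19a and 16 of the 18 of Obp83a, so leaving it out sets a low thorax level beforehand. The calls and the values below therefore describe the remaining libraries and cannot decide on a difference between the tissues. Obp19a had no count in the other two thorax libraries and 0.0913, 1.04 and 1.08 CPM in abdomen, at least 5.07-fold higher than the limit of 0.145 CPM that 3 counts over the 2 thorax libraries allow. Obp83a had 2 counts in the same thorax libraries and 51 in abdomen, a ratio of 16.6 with an exact 95% interval of 4.36 to 141 that covers counting error only.

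Obp28a, which takes part in the response to fruit odours, had 3.07, 1.47 and 4.94 CPM in head, 0.867, 1.56 and 1.94 CPM in thorax and 0.639, 1.52 and 0.120 CPM in eviscerated abdomen. Head was higher than abdomen by 1.99 ± 0.71 on the log2 scale (adjusted p = 0.0218 by edgeR), although the libraries overlapped. This call was lost without head replicate 3, abdomen replicate 1 or abdomen replicate 3, where the value was 1.52, 1.85 and 1.47, and without abdomen replicate 2 the value was 2.97. Obp59a, which is needed for sensing humidity, had 1.12, 0.774 and 0.357 CPM in head and no count in 4 of the 6 thorax and abdomen libraries. It overlaps CG30259, whose mean in head was 0.762 CPM beside 0.751 CPM for Obp59a. Obp69a, linked to the social response of flies to pheromone, had 0.590, 0.232 and 0.952 CPM in head, 0.578, 0.195 and 0.416 CPM in thorax and 0.639, 0.321 and 0.478 CPM in abdomen, and the 3 tissues overlapped.

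Obp84a had a different pattern, with 2.07, 1.24 and 2.68 CPM in head, 0.578, 0.779 and 0.694 CPM in thorax, 3.84, 3.85 and 3.59 CPM in abdomen and 5.03, 5.29 and 5.08 CPM in ovary. The ovary libraries were the highest and did not overlap with the others, but abdomen against ovary was not called (log2 -0.45 ± 0.30, adjusted p = 0.195 by edgeR). This gene overlaps Dtwd2 in the RefSeq annotation, and its mean CPM was 38.5% of that of Dtwd2 in head, 23.5% in thorax, 37.3% in abdomen and 29.2% in ovary. The sources used here do not say whether reads were counted by strand, so reads of the gene and of its overlapping partner cannot be told apart. Head was called lower than abdomen at -0.90 ± 0.31 (log2, adjusted p = 0.0183 by edgeR), and the value was -0.66 without head replicate 2, where the call was lost. The part of ovarian RNA in the abdomen level of Obp84a was not tested.

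Other genes of olfaction were low in these heads too. The obligate olfactory co-receptor Orco had 2.66, 1.32 and 1.19 CPM in head and 0 to 0.555 CPM in thorax, and lush, the odorant-binding protein required to sense the male pheromone cVA, had 1.54, 0.464 and 0.595 CPM in head and 2.56, 1.84 and 0.956 CPM in abdomen. The CD36-related receptor Snmp1 was the highest of the 9 genes of this list, with 8.82 to 10.3 CPM in head and 5.74 to 9.02 CPM in thorax. Of the 9, 7 were tested, and head was higher than thorax for 2, Ir25a and Ir76b, beside 23.2% of all genes tested, and higher than abdomen for 5, Orco, Snmp1, Ir8a, Ir25a and Ir76b, beside 37.6%. The 6 markers of antennal support and receptor cells (lush, Orco, Snmp1, a5, a10 and Os-C) summed to 11.7 to 15.7 CPM in head, 7.11 to 15.0 CPM in thorax and 7.05 to 7.86 CPM in abdomen. All 6 were detected in head. The head label itself held, since the photoreceptor gene ninaE had 23236 to 27140 CPM in head and at most 2.92 CPM in any other library. What part antennal tissue has in the head libraries was not tested.

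**Figure D4:**
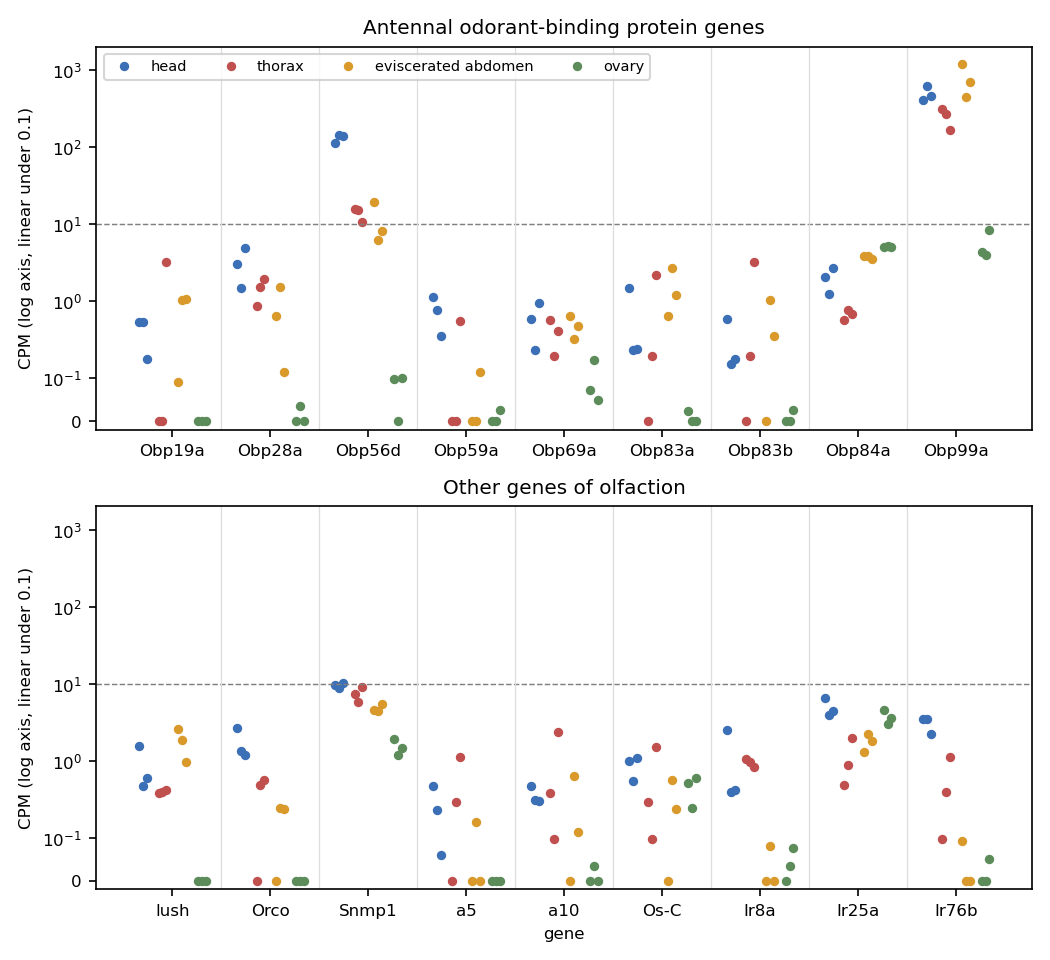
Points are the CPM of single libraries, coloured by tissue, for the 9 antennal odorant-binding protein genes (top) and 9 other genes of olfaction (bottom). The axis is logarithmic above 0.1 CPM and linear below, and the dashed line marks 10 CPM. In the top panel the points above the line belong to Obp56d and Obp99a, and the red points of thorax replicate 3 stand above the blue points of head for Obp19a and Obp83b.

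The genes Obp56e, Obp19d, Obp44a, Obp49a and Obp56g were far higher in head than in thorax or abdomen. Obp56e is known from male seminal fluid, and it had 875, 994 and 965 CPM in head, 0.674, 2.04 and 0.833 CPM in thorax, 3.10, 0.802 and 0.717 CPM in eviscerated abdomen and no count in ovary. The head libraries did not overlap with any other. The log2 fold change was 9.60 ± 0.54 against thorax (adjusted p = 8.31e-08 by edgeR) and 9.23 ± 0.52 against abdomen (adjusted p = 1.78e-08 by edgeR). It was 10.30 without thorax replicate 2 and 10.25 without abdomen replicate 1, respectively. Obp56g, a seminal fluid protein needed to form the mating plug in males, had 52.3, 62.8 and 57.6 CPM in head and at most 0.681 CPM in every other library. Its log2 fold change was 7.45 ± 0.38 against thorax (adjusted p = 9.79e-09 by edgeR), and 8.90 without thorax replicate 2.

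The other members of the seminal fluid list were low. Obp22a, Obp51a, Obp56f and Obp56i stayed under 1 CPM in all libraries, and Obp8a had 6.02, 8.20 and 8.09 CPM in head and 7.90, 7.20 and 2.36 CPM in thorax. Of this list 3 of 7 genes were tested. Of these, 2 were higher in head than in thorax, beside 23.2% of all genes tested, and all 3 were higher in head than in abdomen, beside 37.6%. The 7 markers of the male accessory gland and ejaculatory duct (Acp26Aa, Acp36DE, Acp53Ea, Acp62F, SP, Acp76A and Dup99B) summed to 3.33 to 8.27 CPM in head, 1.35 to 1.95 CPM in thorax and 0.0913 to 0.802 CPM in abdomen, and each of the 7 was detected in at least 1 head library. Acp36DE was the highest of them, with 4.43, 2.79 and 3.33 CPM in head. The sex peptide gene SP had no count in head replicates 2 and 3, and Acp26Aa and Acp53Ea had none in head replicate 2. The part of male tissue in the head level of Obp56e and Obp56g was not tested.

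Obp49a, which mediates the suppression of sweet taste by bitter compounds, had 141, 175 and 184 CPM in head, 5.20, 2.43 and 2.36 CPM in thorax and 0.639, 0.160 and 0 CPM in abdomen. Head was 5.61 ± 0.35 above thorax (log2, adjusted p = 4.56e-08 by edgeR) and 9.17 ± 0.47 above abdomen (log2, adjusted p = 1.12e-09 by edgeR). The latter value was 10.67 without abdomen replicate 1. Of the other taste organ genes, Obp19b had 5.90, 5.26 and 8.45 CPM in head, 4.72, 3.89 and 1.80 CPM in thorax and at most 0.183 CPM in abdomen, with a log2 fold change of head over abdomen of 5.64 ± 0.66 (adjusted p = 4.03e-06 by edgeR). Obp57e, linked with Obp57d to the choice of egg-laying site, had 3 counts in all. Obp57d had 12.1, 11.9 and 14.2 CPM in head, 3.95, 2.72 and 3.61 CPM in thorax and 15.2, 5.77 and 5.50 CPM in abdomen. Its counts were identical in every library to those of Cpr57A, a cuticle protein gene that overlaps it, so the values of Obp57d are those of the shared reads.

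Obp19d, first described as a pheromone-binding protein-related protein, had 469.6, 627 and 600.4 CPM in head, 37.2, 35.5 and 48.4 CPM in thorax, 8.40, 12.4 and 7.65 CPM in abdomen and at most 0.150 CPM in ovary. The 4 tissues did not overlap. The log2 fold change was 3.81 ± 0.30 for head against thorax (adjusted p = 3.15e-07 by edgeR) and -2.08 ± 0.29 for abdomen against thorax (adjusted p = 2.45e-05 by edgeR). Obp44a, a lipid-carrying protein of glia, followed the same order in head, thorax and abdomen. It had 192, 243 and 246 CPM in head, 42.3, 43.0 and 21.4 CPM in thorax and 4.47, 1.36 and 0.717 CPM in abdomen, where the values reached down to those of ovary, 1.13 to 1.18 CPM.

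For Obp44a head was 2.67 ± 0.37 above thorax (log2, adjusted p = 5.54e-05 by edgeR) and 6.66 ± 0.47 above abdomen (log2, adjusted p = 2.42e-08 by edgeR), or 7.69 without abdomen replicate 1. The 4 glial markers (repo, moody, Eaat1 and Gs2) summed to 1743 to 2048 CPM in head, 1788 to 2339 CPM in thorax and 326 to 418 CPM in abdomen. None of the 4 was called between head and thorax, whereas Obp44a was. All 4 were higher in head than in abdomen, as were 37.6% of all genes tested. Their part in the level of Obp44a was not tested. Obp44a overlaps Pabp2, which had 33.0 CPM in head and 71.8 CPM in abdomen.

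Obp56d, from the antennal list, had 112, 144 and 141 CPM in head, 15.9, 15.5 and 10.8 CPM in thorax and 19.7, 6.26 and 8.25 CPM in abdomen. Head was 3.23 ± 0.36 above thorax (log2, adjusted p = 7.91e-06 by edgeR) and 3.54 ± 0.36 above abdomen (log2, adjusted p = 1.09e-06 by edgeR), or 4.21 without abdomen replicate 1. Thorax and abdomen overlapped, and without the same library abdomen was called lower than thorax at -0.99 (log2, adjusted p = 0.00254 by edgeR). Obp56h, which acts in male mating behaviour, had 10.6, 19.3 and 15.1 CPM in head and no count in thorax. Against the limit of 0.108 CPM that 3 counts over the 3 thorax libraries allow, it was at least 139-fold higher in head.

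Expression outside the head was carried by 12 genes, those with a mean of at least 10 CPM in thorax, eviscerated abdomen or ovary: Obp18a, Obp19c, Obp19d, Obp44a, Obp56d, Obp57a, Obp57b, Obp57c, Obp73a, Obp99a, Obp99b and Obp99c. Just inside this limit stood Obp73a with a highest mean of 10.8 CPM outside the head, and just outside it Obp57d with 8.81 CPM. Because these values chose the group, its levels in these tissues are a description. In head, which the limit did not use, the 12 genes had a median of 14.7 RPKM with a range of 1.10 to 356 RPKM. The 7 antennal genes outside the group had a median of 0.171 RPKM with a range of 0.123 to 1.28 RPKM. The limit itself placed the other antennal genes, Obp56d and Obp99a, among the 12, with 53.6 and 199 RPKM in head. The contrast with the 7 genes in head is therefore a description too. In thorax the medians of the 12 and of the 7 genes were 20.0 and 0.376 RPKM and in abdomen 9.42 and 0.320 RPKM. Obp19c was the lowest of the 12 in head.

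Obp99c had 761, 1151 and 1000.2 CPM in head, 668, 673 and 465 CPM in thorax, 1564, 549 and 713 CPM in eviscerated abdomen and 3.55, 1.92 and 6.15 CPM in ovary. Each head library lay above each thorax library, abdomen overlapped with both, and none of the comparisons among these 3 tissues passed the test. It overlaps Gycalpha99B, which had 55.7 CPM in head and 9.45 CPM in abdomen. Against ovary, abdomen was higher by 7.91 ± 0.54 on the log2 scale (adjusted p = 2.57e-08 by edgeR), or 7.33 without abdomen replicate 1. Obp99a, which lies in the same tandem group and is also on the antennal list, was at a similar level. It had 410.2, 618 and 467 CPM in head, 309, 266 and 166 CPM in thorax, 1197, 443 and 711 CPM in abdomen and 4.39, 3.97 and 8.53 CPM in ovary.

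For Obp99a abdomen was above thorax by 1.66 ± 0.37 (log2, adjusted p = 0.00126 by edgeR), without overlap. Head was above thorax by 1.01 ± 0.37 (log2, adjusted p = 0.0421 by edgeR), a call that was lost in 9 of the 12 fits without a library, where the value lay between 0.79 and 1.13. It held without thorax replicate 1, abdomen replicate 1 or abdomen replicate 2. Head and abdomen overlapped and were not called different, but without abdomen replicate 2 head was called lower, at -0.94 (log2, adjusted p = 0.0285 by edgeR). Abdomen replicate 1 was the highest library of the series for both Obp99a and Obp99c.

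The Obp57a, Obp57b and Obp57c genes lie next to each other and differed in their order over the tissues. Obp57c had 73.5, 94.8 and 95.4 CPM in head, 99.5, 96.3 and 65.7 CPM in thorax and 127, 62.0 and 62.3 CPM in abdomen, with means of 87.9, 87.1 and 83.7 CPM. The tissues overlapped and none of the comparisons among them passed the test. Without abdomen replicate 1, abdomen was called lower than head (head over abdomen 0.50 on the log2 scale, adjusted p = 0.0226 by edgeR) and lower than thorax (-0.49, adjusted p = 0.0268 by edgeR). Among head, thorax and abdomen, Obp57a was lowest in head, with 15.4, 18.0 and 17.9 CPM there, 46.1, 42.8 and 27.8 CPM in thorax and 89.8, 44.0 and 39.9 CPM in abdomen.

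For Obp57a the log2 fold change of head was -1.76 ± 0.36 against abdomen (adjusted p = 0.000626 by edgeR) and -1.19 ± 0.36 against thorax (adjusted p = 0.0178 by edgeR). The latter call was lost without head replicate 1, thorax replicate 1 or thorax replicate 2, at -1.12, -1.05 and -1.12. Among the same 3 tissues Obp57b was lowest in abdomen, with 21.2, 24.5 and 25.8 CPM in head, 29.8, 32.5 and 19.4 CPM in thorax and 11.5, 4.57 and 5.38 CPM in abdomen. Abdomen was below thorax at -1.93 ± 0.31 (log2, adjusted p = 8.5e-05 by edgeR), and head was above abdomen by 1.73 ± 0.31 (log2, adjusted p = 0.000185 by edgeR). In ovary each of the 3 genes was under 1 CPM in every library.

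Obp18a was the member with its highest level in abdomen and a clear gap to the other tissues. It had 15.5, 14.3 and 15.0 CPM in head, 8.19, 5.26 and 5.41 CPM in thorax, 55.8, 25.7 and 38.7 CPM in abdomen and at most 0.450 CPM in ovary. The 4 tissues did not overlap. Abdomen was above thorax by 2.66 ± 0.37 (log2, adjusted p = 2.06e-05 by edgeR), and head was below abdomen at -1.42 ± 0.34 (log2, adjusted p = 0.0017 by edgeR). Head was above thorax by 1.24 ± 0.36 (log2, adjusted p = 0.0147 by edgeR), which fell to 1.12 and was no longer called without thorax replicate 2.

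Obp99b had 16.8, 16.7 and 28.0 CPM in head, 7.90, 12.5 and 28.2 CPM in thorax and 18.6, 18.3 and 25.6 CPM in abdomen. The 3 tissues overlapped, with thorax replicate 3 at 28.2 CPM above the other two thorax libraries. No comparison among them was called with all libraries, and without thorax replicate 3 thorax was called lower than head (1.01 on the log2 scale, adjusted p = 0.0125 by edgeR) and than abdomen (1.03, adjusted p = 0.00615 by edgeR). Obp73a had 20.9, 12.7 and 17.4 CPM in head, 10.8, 10.5 and 11.0 CPM in thorax, 3.20, 3.53 and 3.59 CPM in abdomen and 2.05, 1.25 and 1.65 CPM in ovary. Abdomen was below thorax at -1.64 ± 0.24 (log2, adjusted p = 3.19e-05 by edgeR). Its call between head and thorax was lost in 7 of the 12 fits without a library. Obp73a overlaps Cpr73D and Ogdh in the annotation. The means of Ogdh were 430 CPM in head, 2235 CPM in thorax, 179 CPM in abdomen and 109 CPM in ovary. Those of Cpr73D were 8.69, 2.52, 0.936 and 0.0116 CPM in the same order. Whether Obp73a shares reads with either gene was not tested.

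**Figure D5:**
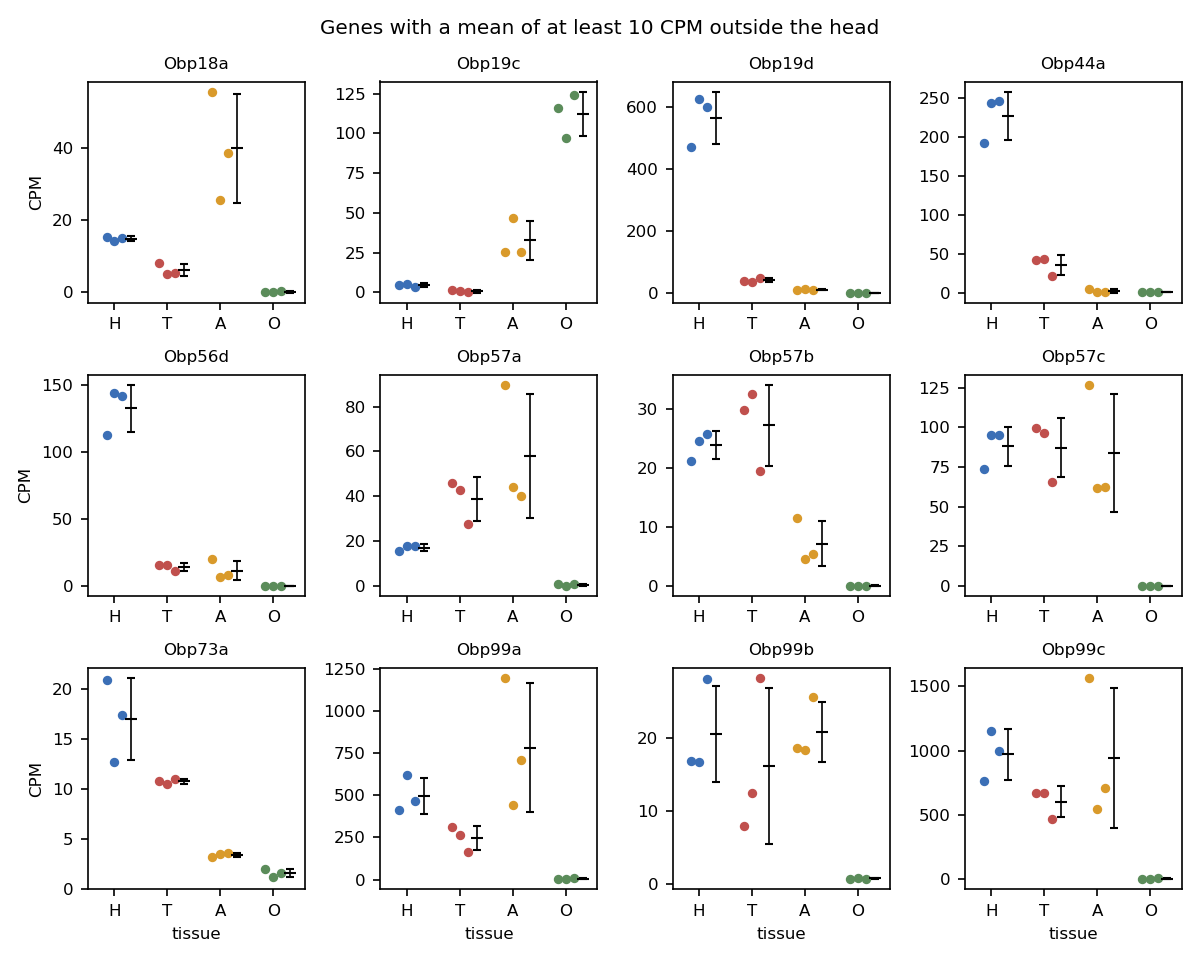
Each panel shows a gene with a mean of at least 10 CPM outside the head, with H for head, T for thorax, A for eviscerated abdomen and O for ovary on the horizontal axis and CPM on the vertical axis. Points are libraries, and the bar beside them gives the mean and 1 SD (n = 3). Obp19c rises to 97.2 to 124 CPM in ovary, where the other 11 genes are near 0, and abdomen replicate 1 is the highest abdomen point for 8 of the 12 genes.

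Obp19c was the only member at an appreciable level in ovary. It had 116, 97.2 and 124 CPM in ovary, 25.7, 46.9 and 25.7 CPM in eviscerated abdomen, 4.90, 5.42 and 3.27 CPM in head and 1.73, 0.584 and 0 CPM in thorax. The 4 tissues did not overlap. Abdomen was below ovary at -1.78 ± 0.34 (log2, adjusted p = 0.000417 by edgeR) and above thorax by 5.27 ± 0.49 (log2, adjusted p = 5.21e-07 by edgeR). The latter value was 6.57 without thorax replicate 1. It accounted for most of the family sum in ovary, 77.2 to 81.7% when counted per length.

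The abdomen libraries also held RNA of ovarian genes. Obp19c in abdomen stood at 22.8, 41.7 and 22.8% of its mean in ovary. Beside it, the maternal determinant oskar (osk) stood at 37.4, 96.6 and 73.5%, nanos (nos) at 17.5, 20.3 and 19.5%, the germline helicase gene vas at 17.0, 51.8 and 53.2%, the chorion gene Cp36 at 43.0, 95.3 and 58.4% and the vitelline membrane gene Vm26Aa at 49.5, 42.2 and 49.9%. These 5 ovary markers summed to 2757 to 4361 CPM in abdomen, 6307 to 6661 CPM in ovary, 3.57 to 19.4 CPM in head and 5.55 to 34.8 CPM in thorax. The part of ovarian RNA in the abdomen level of Obp19c, or of any other member, was not tested. In head the 5 markers stood at 0.0154 to 1.59% of their ovary mean, with vas the highest, and Obp19c at 4.03%.

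Members that lie side by side did not always share a pattern. With no more than 5 genes between neighbours, 36 of the 51 genes formed 10 groups of adjacent members and 15 stood alone. In the group of Obp19a, Obp19b, Obp19c and Obp19d, which follow each other with no gene between, Obp19d had a mean of 566 CPM in head, Obp19c of 112.5 CPM in ovary, and Obp19a did not exceed 3.19 CPM in any library. In the group from Obp56a to Obp56f, Obp56e had a mean of 945 CPM in head and Obp56d of 133 CPM, whereas the neighbouring Obp56b, Obp56c and Obp56f stayed under 1 CPM in all libraries. In the group of Obp99a, Obp99b, Obp99c and Obp99d, the mean in abdomen was 784, 20.8, 942 and 0.286 CPM. The Obp83cd and Obp83ef genes, which overlap in the annotation, were at 3.97 and 7.81 CPM in head, 3.49 and 7.79 CPM in thorax and 3.77 and 7.42 CPM in abdomen.

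The remaining members had few reads in any tissue. The 5 genes from Obp50a to Obp50e did not exceed 1.95 CPM and had no count in eviscerated abdomen or ovary. Obp50b and Obp50c had identical counts in every library and overlap, so they cannot be told apart. Over the family, 8 genes had no count in any thorax library, 17 in any abdomen library and 21 in any ovary library, and none was without a count in head. At these depths a count of 0 allows up to 0.0643 CPM in head, 0.108 CPM in thorax, 0.0944 CPM in abdomen and 0.0275 CPM in ovary over 3 libraries, which covers counting error only. Of the 51, 15 overlap another protein-coding gene in the annotation.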

How the data were processed

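Total RNA-seq reads of 12 libraries (head, thorax, eviscerated abdomen and ovary, 3 each, described by the authors as independent biological replicates) were mapped by the authors to dm3 with Tophat (TopHat2 2.0.10 in the submitters' processing notes) and counted per gene with easyRNASeq. The deposited tables hold raw counts per gene and, in a second table, RPKM values calculated by the authors with library totals that do not follow the gene counts. Strand use and the batches of the authors' batch correction are not given in the sources used here. Tables of repeats and piRNAs from fat bodies hold no genes and were not used.

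The count analysis used edgeR 4.0.16 under R 4.3.3: filterByExpr on tissue, TMM factors over all genes, 1 quasi-likelihood fit of the 4 tissues, 2-sided tests, a prior count of 0.125, and Benjamini-Hochberg adjustment over 11188 genes. Standard errors are the log2 fold change divided by the root of the F statistic. Tables and figures were made in Python 3.11.15 with pandas 2.3.3 and matplotlib 3.10.9. Symbols were matched for 13376 of 13898 genes through tables of FlyBase identifiers and RefSeq genes, the latter of Release 6, which was used only for names, overlaps and order. Libraries held 7884586 to 32498809 counts, and 3 per tissue limit the precision. The script was tested on simulated data.

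All genes of the antennal list were named with values in each library of head, and so were members with a tissue mean of at least 10 CPM; the rest were given by range and count. The alternatives were other scalings (library size alone or upper quartile factors), other filters (none, or 1 CPM in 3 libraries), other tools (DESeq2 1.42.0, and limma 3.58.1 on log2 RPKM with 0.1 or 1 added), a block of replicate numbers, fits of the 2 tissues alone, and each library left out. The members and lists were chosen with earlier results of these data known.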

Additional observations from a re-analysis of the deposited data

How the results depend on the processing

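Of 108 tests (27 genes in 4 comparisons), 67 passed the threshold, and 52 of these were called in the same direction under all 21 alternatives in which they could be fitted. All 67 kept their call with no filter, with 1 CPM in 3 libraries and with library size alone, and 66 with DESeq2 and with upper quartile factors. With no filter, 21 of the 51 members were higher in head than in abdomen in place of 13 of 27, beside 5376 of 13890 genes tested. The 8 added were among the 24 not tested otherwise, with at most 2.22 CPM in any library. Fitted on only the 2 tissues compared, 61 kept it, 1 lost it and 5 were not tested. With each library left out in turn, 63 to 67 calls were kept. The number of members called ranged from 11 to 16 (head against thorax), 17 to 22 (head against abdomen), 13 to 17 (abdomen against thorax) and 22 to 26 (abdomen against ovary). The filter was run anew in each fit, with 11196 to 11768 genes tested, so these counts include members outside the 27. Over all genes, 1915 to 3407 were higher in head than in thorax and 1557 to 2767 lower. Head against abdomen had 4043 to 4589 and 3941 to 4361, abdomen against thorax 3667 to 4181 and 3762 to 4329. Abdomen against ovary had 3480 to 4067 and 3531 to 4121.

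Limma on log2 RPKM kept 58 calls with 0.1 added and 55 with 1 added. Both reversed Obp73a for head against thorax and for abdomen against ovary. Head against thorax then had 9 higher and 4 lower members with 0.1 added, and abdomen against thorax 3 and 12, in place of 13 and 1 and of 5 and 8. Over all genes with 0.1 added, 1240 were higher in head than in thorax and 6014 lower. In abdomen against thorax, 2228 were higher in abdomen and 5445 lower. The median of all genes moved from 0.12 to -0.73 for head against thorax and from 0 to -1.74 for abdomen against ovary. With library size alone, it moved to 0.36 for head against thorax. There 3703 genes were higher in head and 1380 lower, in place of 2594 and 1972. Abdomen against thorax then had 8 members higher and 8 lower. Over all genes, 4917 were higher in abdomen than in thorax and 3181 lower, in place of 3999 and 4068.

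With the replicate number as a block, 13, 17, 13 and 23 members were called in the 4 comparisons, against 14, 17, 13 and 23 without it, and the call lost was that of Obp99a for head against thorax. Correlations of deviations between libraries of the same number lay between -0.24 and 0.18, and 2 of 12 libraries correlated best with their own number. These values cannot show whether libraries share flies or a batch, since the batches are not given and need not follow the numbers. Under 1 CPM a level rests on few counts, and a member not called there may differ by an amount not detectable at this depth.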
